A study of Mus musculus with 30 samples.

Results

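Connexins and pannexins are membrane channel proteins. The 7 genes described here are 5 connexin genes (Gja1, Gja4, Gja5, Gjb2 and Gjc1) and 2 pannexin genes (Panx1 and Panx3), out of the 23 genes of the gap junction and pannexin families in the count table (20 connexins and 3 pannexins) and out of 55416 gene IDs in all. The family was chosen by the values of Gja1, whose level in P-Apex1 KO callus at 14 days post fracture (14-dpf) lay far below that of WT callus. Its 14-dpf values are therefore given as a description, with no test. Gjb2 at 14-dpf is also described with no p, for a reason given below. Gja4, Gja5, Gjc1, Panx1 and Panx3 were tested at that time point. All 7 members were found in the table and passed the filter on low counts at every time point.

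Connexins assemble as hexamers, and docked hexamers of neighbouring cells form gap junctions, through which ions and small molecules such as cyclic AMP and calcium pass. Pannexins form channels in the plasma membrane that do not usually dock, and they are best known for releasing ATP, which acts on purinergic receptors of nearby cells. In bone, connexin 43, the product of Gja1, joins osteoblasts and osteocytes into a network. Panx3 is expressed by prehypertrophic and hypertrophic chondrocytes and by osteoblasts, whereas connexin 37 (Gja4) and connexin 40 (Gja5) belong to the endothelium of arteries, connexin 45 (Gjc1) to smooth muscle and the cardiac conduction system, and connexin 26 (Gjb2) to epithelia. Panx1 is found in most tissues, immune cells among them.

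Bulk RNA sequencing of dissected tibial fracture callus covered 30 libraries, each taken as 1 mouse. The labels do not give the age of the mice. In P-Apex1 KO mice (Prrx1-Cre;Apex1 C/C), Cre acts in the limb bud mesenchyme, so that callus cells of other origin, such as blood and endothelial cells, keep Apex1, a gene for a DNA repair endonuclease and redox factor. The WT group is made of littermates, some of which carry Prrx1-Cre with 1 floxed allele of Apex1 and others floxed alleles without Cre. Groups held 4 WT (2 females, 2 males) and 4 P-Apex1 KO mice (1 female, 3 males) at 3-dpf, 5 WT (3 females, 2 males) and 3 P-Apex1 KO mice (1 female, 2 males) at 6-dpf, 4 WT (2 females, 2 males) and 3 P-Apex1 KO mice (1 female, 2 males) at 10-dpf, and 4 WT (1 female, 3 males) and 3 P-Apex1 KO mice (3 females) at 14-dpf. With sex in the model, the 14-dpf difference therefore rests on the only WT female, replicate 1.

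Between 18334389 and 43111491 reads were counted on genes per library. CPM are counts scaled to the library's normalized size, and errors of CPM are SDs. For Apex1 the 3-dpf means were 32.6 ± 3.22 CPM for 4 WT libraries and 29.3 ± 7.13 CPM for 4 libraries labelled P-Apex1 KO. At 6-dpf they were 23 ± 3.21 (n = 5) and 14.9 ± 0.377 CPM (n = 3), at 10-dpf 23.3 ± 4.95 (n = 4) and 15.3 ± 1.41 CPM (n = 3), and at 14-dpf 23.5 ± 3.3 (n = 4) and 15.9 ± 2.46 CPM (n = 3). Replicate 4 of the 3-dpf libraries labelled P-Apex1 KO held 37.1 CPM, above the highest WT library of that time point (36.1 CPM), so the values of the 7 genes at 3-dpf, in P-Apex1 KO from 3- to 6-dpf and in the interaction are also given without it. Apex1 was lower in P-Apex1 KO mice past the threshold at 6- and 10-dpf (log2 fold change -0.67 and -0.65) and not at 3- and 14-dpf (-0.15 and -0.29). The tissue label was checked with marker genes: the 7 osteoblast markers were above 0 in every group, and 5 markers of skin epithelium summed to between 1.79 and 8.06 CPM. Markers of skeletal muscle were present too, at 6-dpf between 2049 and 3728 CPM in WT and between 4956 and 10944 CPM in P-Apex1 KO callus. There 5 of 5 passed the threshold as higher, where 5.31% of all genes tested did, and at the other time points 0 of 5 passed. The check therefore does not show that the dissected tissue was alike in both genotypes.

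The genes lie on 6 chromosomes of the GRCm39 assembly, and each is annotated as protein coding. Gja1 (ENSMUSG00000050953) is at chr10:56253241-56278609 on the plus strand, Gja4 (ENSMUSG00000050234) at chr4:127205214-127207851 on the minus strand, Gja5 (ENSMUSG00000057123) at chr3:96812009-96984732 on the plus strand and Gjb2 (ENSMUSG00000046352) at chr14:57335919-57342240 on the minus strand. Gjc1 (ENSMUSG00000034520) is at chr11:102686879-102710532, Panx1 (ENSMUSG00000031934) at chr9:14913424-14956813 and Panx3 (ENSMUSG00000011118) at chr9:37571198-37580531, all on the minus strand. Counts came from uniquely mapped reads of the annotated strand, over all exons of a gene.

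For Gja1, which chose the family, and Gjc1, which differed between genotypes past the threshold at 2 time points, sequence before the start site of the canonical transcript is shown. In these genes and in Gja4, Gja5, Gjb2 and Panx1 the 250 bases before that site were searched on both strands for 6 motifs. TGANTCA is the motif of AP-1, and TGTGGT that of RUNX factors. The hypoxia response core was searched as ACGTG and, in its other common form, as the letters GCGTG. A GC box was searched as GGGCGG and a TATA box as the letters TATAAA. AP-1 and the hypoxia-inducible factor are textbook redox-sensitive partners of the Apex1 protein, and Runx2 is a factor of bone and hypertrophic cartilage, which is why these letters were looked for. The stretches around the AP-1 match of Gja1 (chr10:56253366-56253394, plus strand) and around the first GCGTG match of Gjc1 (chr11:102710309-102710335, minus strand) read as follows, 5′ to 3′, with the matches in capitals.
Gja1: ctccttccagtTGAGTCAgtggcttgaaa
Gjc1: actcaggtgagGCGTGtctccatcacg

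The TGAGTCA of Gja1 is 43 bases before the start site, inside the 5′ UTR of other annotated transcripts of the gene. A TGANTCA match was found in 6.17% of 21770 promoters searched in the same way. Gja1 also held 1 GCGTG on the minus strand, 121 bases before the start. Gjc1 held 3 GCGTG matches, 110, 98 and 66 bases before the start, and a GC box at 28 bases. GCGTG was in 31.2% and the GC box in 36.3% of the promoters. None of these matches overlapped another. Of the other 4 genes searched, Gja4 and Gja5 held 1 GC box each, Gjb2 held 2, and Panx1 held 1 GCGTG and 2 TGTGGT matches, a motif in 13% of the promoters. All of these are matches of letters and were not tested against binding.

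Levels were compared between genes as CPM per kb of exon. The exon length joins the exons of all annotated transcripts of a gene, 12302 bases for Gja1 and 3434 for Panx3. The order of this pair depends on that length, since in CPM the mean of Gja1 was above that of Panx3 in every group. At 6-dpf in WT these means were 466 and 295 CPM, and at 14-dpf in P-Apex1 KO mice 513 and 300 CPM. Gja1 stood highest of the members at 3-dpf in both groups, with 38.7 CPM per kb in WT (range 31.6 to 44.8) and 38.7 in those labelled P-Apex1 KO. At 6-dpf in WT, Panx3 stood first at 85.8 CPM per kb (range 79.2 to 95.5), and Gja1 came next at 37.9 without overlap. In the 6-dpf P-Apex1 KO mice Gja1 (30.6) and Panx3 (26.4, range 11.7 to 34.6) overlapped. Panx3 was again first at 10-dpf, with 139 CPM per kb in WT and 161 in P-Apex1 KO mice, against 86.9 and 48.9 for Gja1. At 14-dpf the order of the top pair differed between the genotypes: Gja1 (141) stood above Panx3 (73.1) in WT, and Panx3 (87.3) above Gja1 (41.7) in P-Apex1 KO mice, in each case without overlap of the libraries. Gja4, Gja5, Gjc1 and Panx1 lay between 1.11 and 6.25 CPM per kb in every group mean, with neighbours in the order often overlapping. Gjb2 was lowest in every group, between 0.0319 and 0.301.

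**Figure D1:**
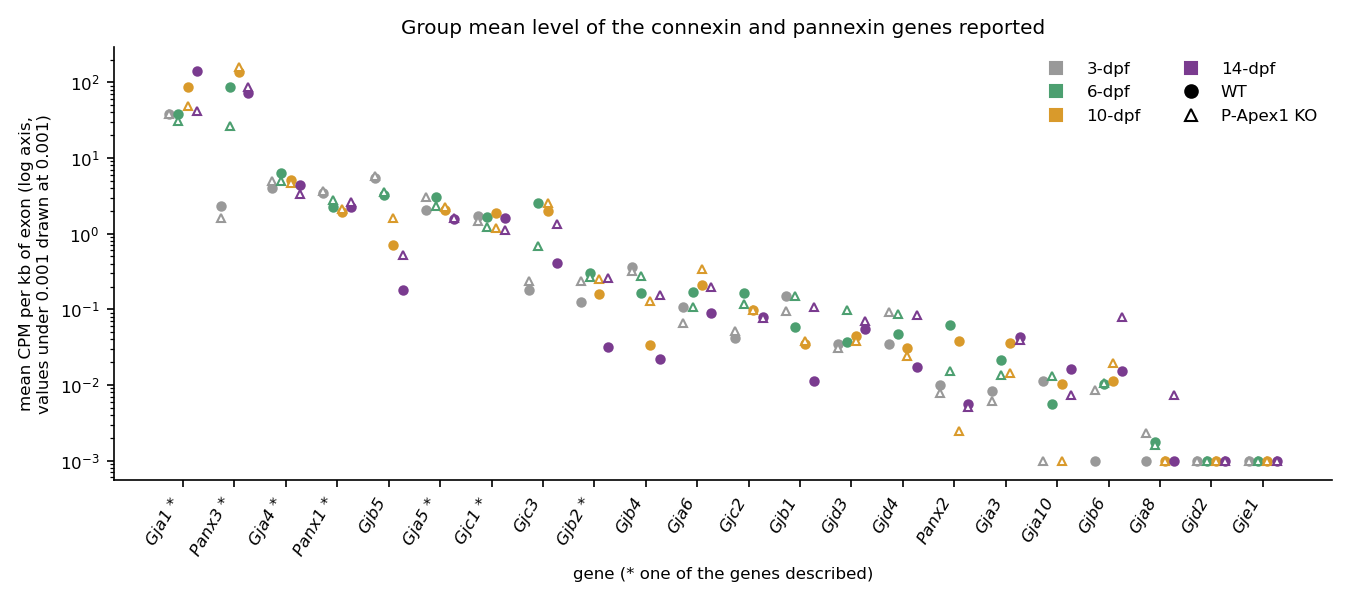
Mean CPM per kb of exon (log axis, values under 0.001 drawn at 0.001) of the connexin and pannexin genes reported here in each genotype and time point, with filled circles for WT and open triangles for P-Apex1 KO. Gja1 and Panx3 reach the highest levels, up to 141 and 161 CPM per kb, and most of the genes outside the 7 lie below 1.

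Of the summed level per kb of the 20 connexin genes, Gja1 made up between 68.9% and 72.3% in the WT libraries at 3-dpf, between 62.2% and 76.5% at 6-dpf, between 78.1% and 90.9% at 10-dpf and between 93.4% and 95.3% at 14-dpf. The ranges for P-Apex1 KO labels were 57.4% to 74.6%, 66.7% to 69.2%, 76.7% to 82.2% and 77% to 85.9%. The 14-dpf ranges did not overlap, which follows from the values that chose the family.

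**Figure D2:**
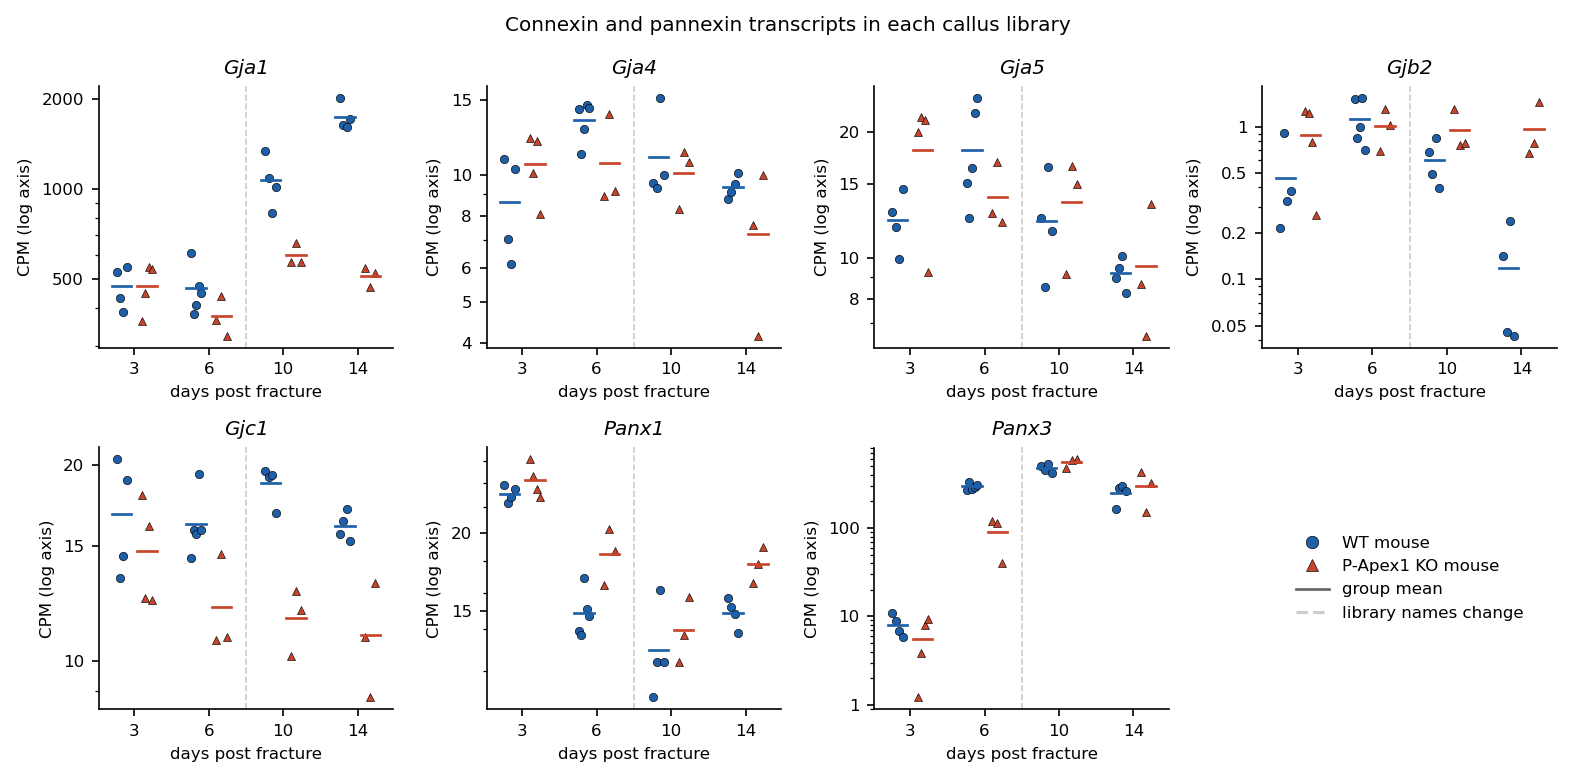
CPM (log axis) of the 7 genes in each of the 30 libraries against days post fracture, with blue circles for WT mice, red triangles for P-Apex1 KO mice and a line at each group mean. The dashed line marks the change of library names between 6- and 10-dpf, across which no comparison was made. The Gja1 circles stand above the triangles at 10- and 14-dpf, and the Panx3 triangles lie below the circles at 6-dpf.

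At 3-dpf no difference between the genotypes was found for any of the 7 genes. Gja1 had 530, 432, 389 and 551 CPM in the WT libraries and 364, 451, 550 and 540 CPM in those labelled P-Apex1 KO, ranges that overlap throughout (log2 fold change -0.01, standard error 0.16, edgeR adjusted p = 0.995, over all genes tested as for every adjusted p given here). Gja5 had 12.9, 11.9, 9.94 and 14.6 CPM in WT, against 20, 21.7, 21.4 and 9.25 CPM where the label was P-Apex1 KO. Replicates 1 to 3 of the latter stood above every WT library and replicate 4 below every one, which gave 0.55 on the log2 scale (standard error 0.28, adjusted p = 0.843). Without replicate 4, the library that was high in Apex1, it was 0.75 (standard error 0.13, adjusted p = 0.0971).

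Panx3 was low at 3-dpf, with 10.8, 8.86, 6.77 and 5.85 CPM in WT and 1.22, 3.82, 7.98 and 9.25 CPM in the 4 labelled P-Apex1 KO. Replicates 1 and 2 of the latter were below the WT libraries and the others within their range (log2 fold change -0.50, standard error 0.56, adjusted p = 0.916, and -0.96 with adjusted p = 0.692 without replicate 4). The log2 fold changes of Gja4, Gjb2, Gjc1 and Panx1 were 0.27, 1.15, -0.22 and 0.06, with adjusted p between 0.843 and 0.995 over all 7 genes. Without replicate 4 the log2 fold changes of Gja1, Gja4, Gjb2, Gjc1 and Panx1 were -0.06, 0.39, 1.37, -0.13 and 0.09, with adjusted p between 0.498 and 0.955, and none was called. Panx1 was the steadiest, between 22.3 and 26.2 CPM in the 8 libraries. Of all 19866 genes tested at 3-dpf, 0% were called, while 1216 had an unadjusted p under 0.05 and DESeq2 called 85 (3 lower, 82 higher).

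At 6-dpf Panx3 and Gjc1 fell in P-Apex1 KO mice, and the other 5 genes did not pass the threshold. These are 2 of 7 members called lower and 0 called higher, where 5.61% of all genes tested were called lower and 5.31% higher. Panx3 had 272, 328, 274, 291 and 307 CPM in WT and 119, 113 and 40.3 CPM in P-Apex1 KO mice. Every P-Apex1 KO mouse lay below every WT mouse, with replicate 3 the lowest, and the level was 3.2-fold lower (log2 fold change -1.68, standard error 0.31, adjusted p = 0.0118). The fall remained called in each of the 8 fits that left out 1 mouse (log2 fold change between -2.02 and -1.36). The call was lost with no filter on low counts, where the adjusted p was 0.0894.

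Markers of cartilage were lower in the same P-Apex1 KO mice. The 3 markers of hypertrophic cartilage (Col10a1, Ihh and Mmp13) summed to between 2776 and 5035 CPM in WT and between 547 and 847 CPM in P-Apex1 KO callus, with 2 of 3 called lower, and the 5 cartilage markers to between 22967 and 41754 CPM and between 1513 and 2728 CPM, with 5 of 5 called lower. Osteoblast markers summed to between 36714 and 50251 CPM in WT and between 17107 and 27095 CPM in P-Apex1 KO callus, with 6 of 7 called lower, and no marker of these 3 lists was at 0. Their part in the fall of Panx3 was not tested. In bulk tissue, fewer cells of a type and less RNA per cell cannot be told apart.

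Gjc1 at 6-dpf had 14.4, 15.9, 15.7, 19.4 and 15.9 CPM in WT and 10.8, 14.6 and 10.9 CPM in P-Apex1 KO mice. Replicate 2 of P-Apex1 KO reached into the WT range (log2 fold change -0.49, standard error 0.13, adjusted p = 0.0422). This call depended on the setting and the mice: the adjusted p was 0.0648 with no sex term, 0.0925 with library size alone, and 0.0629, 0.0758, 0.145, 0.0738, 0.169 and 0.0878 without WT replicates 2, 3, 4 and 5 and P-Apex1 KO replicates 1 and 3. Markers of smooth muscle and pericytes summed to between 1258 and 1634 CPM in WT and between 616 and 1232 CPM in P-Apex1 KO callus, with 1 of 5 called lower and none at 0. The one called was Cspg4 (log2 fold change -2.02). Of those not called, Rgs5 and Notch3 had -0.38 and -0.49, while Acta2 and Myh11 had 0.19 and 0.41. The part of these markers in the Gjc1 difference was not tested.

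Gja1 had 613, 384, 410, 475 and 450 CPM in WT and 366, 438 and 324 CPM in P-Apex1 KO mice at 6-dpf. The groups overlapped (log2 fold change -0.28, standard error 0.17, adjusted p = 0.361), while the osteoblast markers given above did not. Gja4 had 14.3, 11.2, 12.8, 14.6 and 14.4 CPM in WT and 8.91, 13.9 and 9.13 CPM in P-Apex1 KO mice. Replicate 2 of P-Apex1 KO was again the one within the WT range. Its log2 fold change was -0.36 (adjusted p = 0.246), and -0.57 (adjusted p = 0.0363) without that mouse. The same mouse had the highest endothelium markers of the time point: the 6 markers summed to between 378 and 628 CPM in P-Apex1 KO and between 436 and 604 CPM in WT mice, with 0 of 6 called and none at 0.

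Panx1 lay between 13.7 and 16.9 CPM in WT and at 16.5, 20.3 and 18.7 CPM in P-Apex1 KO mice at 6-dpf (log2 fold change 0.31, standard error 0.12, adjusted p = 0.129). With library size alone, which moved the median of all genes to 0.20, the log2 fold change was 0.49 (adjusted p = 0.0283). Macrophage markers summed to between 1249 and 1600 CPM in WT and between 2149 and 2490 CPM in P-Apex1 KO callus, with 4 of 5 called higher and none at 0, and their part in the Panx1 values was not tested. Gja5 (log2 fold change -0.37, adjusted p = 0.369) and Gjb2 (-0.27, adjusted p = 0.71) overlapped between the genotypes.

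At 10-dpf Gja1 and Gjc1 fell in P-Apex1 KO mice, and Panx3 did not differ detectably. Again 2 of 7 members were called lower and 0 higher, where 3.44% of all genes tested were called lower and 3.01% higher. Gja1 had 1340, 1088, 829 and 1017 CPM in WT and 571, 661 and 572 CPM in P-Apex1 KO mice. The groups did not overlap, and the level was 1.72-fold lower in P-Apex1 KO mice (log2 fold change -0.78, standard error 0.16, adjusted p = 0.0299). The call held under the 10 settings with all mice, with log2 fold changes between -0.83 and -0.71. It was lost without WT replicate 1 (log2 fold change -0.70, adjusted p = 0.0801), WT replicate 2 (-0.79, 0.0858), P-Apex1 KO replicate 1 (-0.59, 0.185) and P-Apex1 KO replicate 3 (-0.78, 0.08).

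Osteoblast markers summed to between 40915 and 58090 CPM in WT and between 17659 and 26963 CPM in P-Apex1 KO callus at 10-dpf, with 5 of 7 called lower, among them Runx2 and Sp7, and none at 0. Their part in the fall of Gja1 was not tested.

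Gjc1 had 19.6, 19.2, 19.3 and 16.9 CPM in WT and 10.2, 12.8 and 12 CPM in P-Apex1 KO mice at 10-dpf. The groups were apart, with the level 1.62-fold lower in P-Apex1 KO mice (log2 fold change -0.69, standard error 0.12, adjusted p = 0.0192). The call was lost without WT replicate 1 (-0.67, adjusted p = 0.069), WT replicate 2 (-0.67, adjusted p = 0.0636) and P-Apex1 KO replicate 1 (-0.55, adjusted p = 0.115). The smooth muscle and pericyte markers overlapped between the genotypes at this time point, between 1087 and 1536 CPM in WT and between 985 and 1230 CPM in P-Apex1 KO callus, with 1 of 5 called lower and none at 0.

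Panx3 at 10-dpf had 499, 458, 534 and 413 CPM in WT and 474, 587 and 596 CPM in P-Apex1 KO mice. The P-Apex1 KO mice were within or slightly above the WT range (log2 fold change 0.19, standard error 0.13, adjusted p = 0.407). The hypertrophic cartilage markers, in contrast, summed to between 12842 and 16042 CPM in WT and between 7271 and 11094 CPM in P-Apex1 KO callus, with 1 of 3 called lower (Mmp13) and none at 0. The log2 fold changes of Gja4, Gja5, Gjb2 and Panx1 were -0.19, 0.03, 0.67 and 0.06 (adjusted p between 0.311 and 0.941), and the groups overlapped for each of them.

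**Figure D3:**
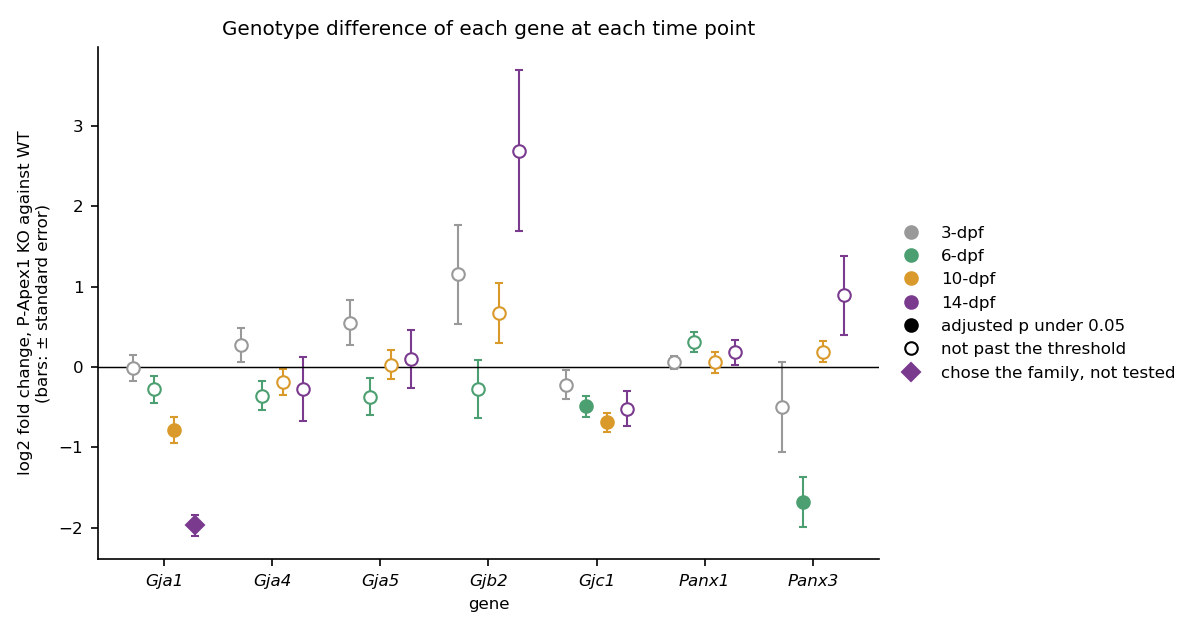
Log2 fold change of P-Apex1 KO against WT (vertical axis, bars of 1 standard error) for each of the 7 genes at the 4 time points, with filled points where the adjusted p was under 0.05 and a diamond for Gja1 at 14-dpf, which was not tested. Filled circles are Panx3 and Gjc1 at 6-dpf and Gja1 and Gjc1 at 10-dpf, and Gjb2 at 14-dpf has the longest bar.

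At 14-dpf Gja1 had 2012, 1632, 1611 and 1705 CPM in WT and 543, 470 and 525 CPM in P-Apex1 KO mice. The WT female held the most, and every P-Apex1 KO mouse was below every WT mouse. With sex in the model the level was 3.92-fold lower in P-Apex1 KO mice (log2 fold change -1.97, standard error 0.13), and these are the values that chose the family. Without the WT female, where sex can no longer be fitted, the log2 fold change was -1.67. Osteoblast markers summed to between 69145 and 94235 CPM in WT and between 17619 and 19142 CPM in P-Apex1 KO callus, with 4 of 7 called lower (Col1a1, Sp7, Dmp1 and Runx2) and none at 0, and their part in the Gja1 difference was not tested.

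None of Gja4, Gja5, Gjc1, Panx1 and Panx3 was called at 14-dpf, where 7.04% of all genes tested were called lower and 4.28% higher. Gjb2 had 3, 1, 5 and 1 counts in the WT libraries and 19, 16 and 30 counts in the P-Apex1 KO libraries. In CPM these were 0.143, 0.0454, 0.243 and 0.0429 against 0.671, 0.775 and 1.44, so that all P-Apex1 KO mice lay above all WT mice on few reads, and the gene passed the filter on low counts through the P-Apex1 KO libraries. The fitted difference was 2.69 on the log2 scale (standard error 1.00). As the gene entered the test through the group where it was higher, this is a description and no p is given for it. The markers of skin epithelium, a tissue in which Gjb2 is abundant, summed to between 1.79 and 3.64 CPM in WT and between 4.13 and 6.41 CPM in P-Apex1 KO callus. Of these, 2 of 5 were past the filter, 0 were called and none was at 0 across a group. Those past the filter moved in opposite directions, Krt10 by -0.32 and Dsp by 1.61. Skeletal muscle markers summed to between 770 and 2732 CPM in WT and between 1822 and 7021 CPM in P-Apex1 KO callus, with 0 of 5 called. The part of either list in the Gjb2 values was not tested.

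At 14-dpf Gjc1 had 15.7, 16.4, 17.1 and 15.3 CPM in WT and 10.9, 8.81 and 13.2 CPM in P-Apex1 KO mice. The groups did not overlap, but the log2 fold change of -0.52 (standard error 0.22) did not pass (adjusted p = 0.17). It passed with no sex term (-0.54, adjusted p = 0.017), with all 30 samples in one model (-0.47, adjusted p = 0.0351) and without the WT female (-0.55, adjusted p = 0.0316). Without the WT female, WT males are compared with P-Apex1 KO females, so genotype and sex cannot be told apart. The fit with no sex term does not account for sex either. The fitted difference thus kept its direction at all 4 time points, at -0.22, -0.49, -0.69 and -0.52 in the order of time.

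Panx3 at 14-dpf had 162, 286, 297 and 260 CPM in WT and 425, 152 and 322 CPM in P-Apex1 KO mice. The WT female was the lowest WT mouse, and P-Apex1 KO replicate 2 lay below it (log2 fold change 0.89, standard error 0.49, adjusted p = 0.295). Without that P-Apex1 KO mouse the log2 fold change was 1.21 (adjusted p = 0.00359), and without the WT female it was 0.12 (adjusted p = 0.814). The sums of the hypertrophic cartilage markers overlapped, between 3575 and 7849 CPM in WT and between 3327 and 8045 CPM in P-Apex1 KO mice. Of these, 2 of 3 were called higher (Col10a1 by 2.46 and Ihh by 2.17), Mmp13 was not called (-0.58), and none was at 0. The 5 cartilage markers also overlapped in sum, between 721 and 4480 CPM in WT and between 2903 and 3298 CPM in P-Apex1 KO mice, with 5 of 5 called higher. The part of either list in the Panx3 values was not tested. Panx1 had 15.7, 15.2, 14.8 and 13.8 CPM in WT and 16.6, 17.8 and 19 CPM in P-Apex1 KO mice. These ranges did not overlap, yet the fit gave 0.18 (standard error 0.15, adjusted p = 0.483), and with all 30 samples in one model 0.30 (adjusted p = 0.0426). Macrophage markers summed to between 1506 and 1612 CPM in WT and between 1736 and 2034 CPM in P-Apex1 KO callus, with 3 of 5 called higher and 2 lower and none at 0, and their part in the Panx1 values was not tested.

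The arterial connexins Gja4 and Gja5 had wide and overlapping values at 14-dpf. Gja4 lay between 8.76 and 10.1 CPM in WT and at 7.59, 4.16 and 10 CPM in P-Apex1 KO mice (log2 fold change -0.27, adjusted p = 0.701). Gja5 lay between 8.27 and 10.1 CPM in WT and at 8.69, 6.54 and 13.5 CPM in P-Apex1 KO mice (0.10, adjusted p = 0.891). For both genes replicate 2 was the lowest and replicate 3 the highest P-Apex1 KO mouse. Arterial endothelium markers summed to between 130 and 148 CPM in WT and between 56.3 and 76.5 CPM in P-Apex1 KO callus, with 1 of 5 called lower and 1 higher and none at 0. The marker called lower was Hey1 (log2 fold change -3.26) and the one called higher was Bmx (0.96). Sox17, Efnb2 and Dll4 were not called (-0.39, -0.51 and -0.62), so the sum does not describe the list as a whole. The 6 endothelium markers summed to between 730 and 796 and between 487 and 575 CPM, with 3 of 6 called lower and none at 0.

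**Figure D4:**
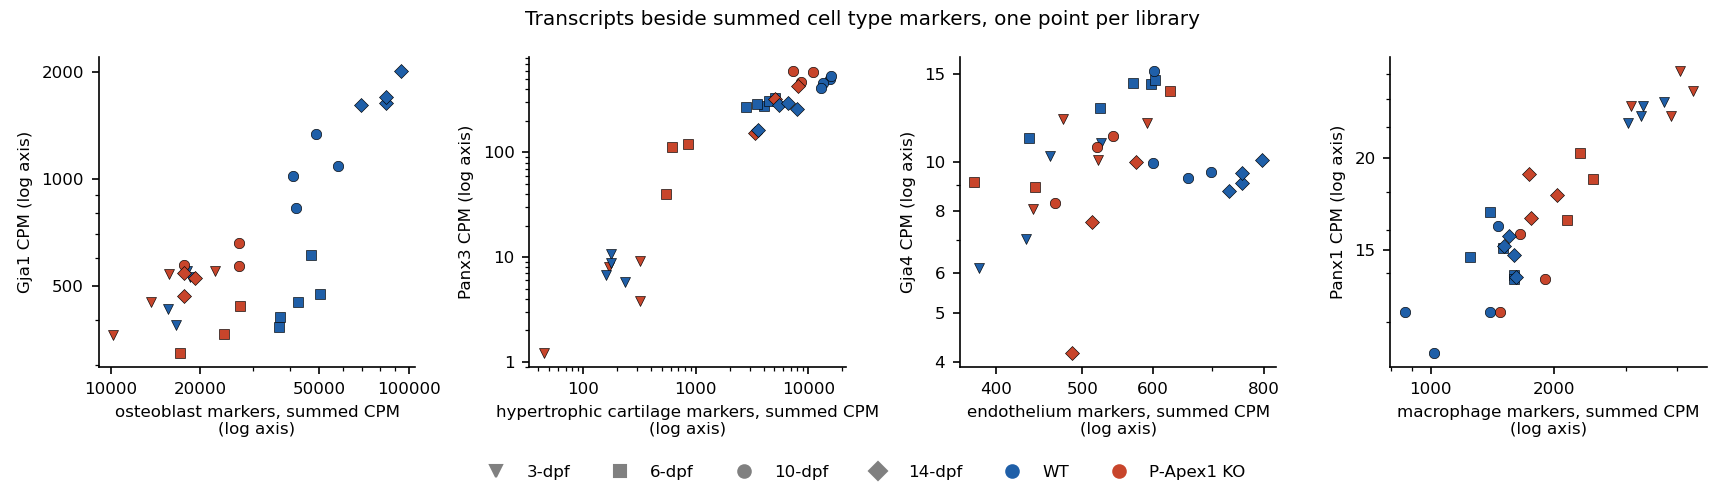
CPM of Gja1, Panx3, Gja4 and Panx1 (vertical, log axis) against the summed CPM of osteoblast, hypertrophic cartilage, endothelium and macrophage markers (horizontal, log axis), with 1 point per library, shape for the time point and color for the genotype. Among the 10- and 14-dpf libraries, those of WT at 14-dpf hold the most Gja1 (1611 to 2012 CPM) and the most osteoblast marker RNA, and among the 3- and 6-dpf libraries, those of 3-dpf hold the least Panx3 and the most Panx1. CPM were scaled within each time point.

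The next question was how the genes moved with time within each genotype. CPM were scaled within each time point, so CPM of different time points are not on one scale. The fold changes and tests come from models that held both time points. From 3- to 6-dpf in WT, Panx3, Gja4 and Gjb2 rose and Panx1 fell, so that 3 of 7 members were called higher and 1 lower, where 15.4% of all genes tested were called higher and 15.1% lower. Panx3 rose 39.5-fold (log2 fold change 5.30, standard error 0.50, adjusted p = 6.29e-06), from between 5.85 and 10.8 CPM to between 272 and 328 CPM. Over the same interval all 3 hypertrophic cartilage markers and 6 of 7 osteoblast markers were called higher, and their part was not tested.

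Gja4 rose from between 6.16 and 10.9 CPM at 3-dpf to between 11.2 and 14.6 CPM at 6-dpf in WT (log2 fold change 0.82, standard error 0.19, adjusted p = 0.00405). Over the same interval 4 of 6 endothelium markers and 3 of 5 arterial endothelium markers were called higher, with sums of between 383 and 525 CPM at 3-dpf and between 436 and 604 CPM at 6-dpf for the former and between 56.7 and 63.7 and between 72.3 and 94 CPM for the latter, none at 0, and their part was not tested. Gjb2 rose by 1.44 on the log2 scale (standard error 0.48, adjusted p = 0.0314), a call lost with library size alone (adjusted p = 0.0536) and without WT replicate 1, 3 or 4 of 3-dpf or 1 or 4 of 6-dpf (adjusted p between 0.0616 and 0.0999). This rise rests on few reads, with 8 to 27 counts per WT library at 3-dpf and 20 to 50 at 6-dpf. Panx1 fell from between 22.3 and 23.8 CPM to between 13.7 and 16.9 CPM (log2 fold change -0.49, standard error 0.08, adjusted p = 0.000325). Macrophage markers summed to between 3035 and 3709 CPM at 3-dpf and between 1249 and 1600 CPM at 6-dpf in these mice, and their part in the fall was not tested. Gja5 narrowly missed the threshold (0.69, adjusted p = 0.0507) and passed with no sex term (adjusted p = 0.041) and without the Apex1-high library of 3-dpf (adjusted p = 0.00887). Gja1 and Gjc1 had log2 fold changes of 0.11 and 0.12 (adjusted p = 0.65 and 0.559).

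From 3- to 6-dpf in P-Apex1 KO mice, 1 of 7 members was called, where 7.1% of all genes tested were called higher and 6.91% lower. This was Panx3, which rose 17.8-fold (log2 fold change 4.16, standard error 0.51, adjusted p = 0.0003), from between 1.22 and 9.25 CPM to between 40.3 and 119 CPM. Without the 3-dpf library high in Apex1 the log2 fold change was 4.55 (adjusted p = 0.000578), and the values of the other 6 genes lay between -0.44 and 0.04 with none called. Panx1 had a log2 fold change of -0.24 (adjusted p = 0.103) and Gja4 of 0.16 (adjusted p = 0.682).

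Whether the genotype difference itself changed between 3- and 6-dpf was tested as an interaction, which 1.3% of all genes passed and 0 of the 7 members did. The estimates nearest to the threshold were those of Gja5 (-0.91, standard error 0.38, adjusted p = 0.324), Gja4 (-0.66, standard error 0.28, adjusted p = 0.343) and Panx1 (0.25, standard error 0.12, adjusted p = 0.428). For Panx3 the interaction was -1.15 (standard error 0.64, adjusted p = 0.516), so the call at 6-dpf and its absence at 3-dpf are not shown to differ. Without the library high in Apex1 the interaction of Gja5 was -1.15 (standard error 0.28, adjusted p = 0.0668), that of Gja4 -0.79 (adjusted p = 0.175), that of Panx3 -0.74 (adjusted p = 0.695) and that of Panx1 0.21 (adjusted p = 0.503), and for Gja1, Gjb2 and Gjc1 it was -0.23, -1.40 and -0.35, with 0 of 7 called.

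From 10- to 14-dpf in WT, Panx3 was called lower and no other member tested was called. Of all genes, 4.92% were called lower and 6.19% higher. Gjb2 had 1 to 5 counts per WT library at 14-dpf and entered this model through the other groups, where it was higher. Its estimate is therefore a description with no p: it decreased by 2.26 on the log2 scale (standard error 0.53). Its CPM lay between 0.397 and 0.837 at 10-dpf and between 0.0429 and 0.243 at 14-dpf. Panx3 was 2.06-fold lower at 14-dpf (log2 fold change -1.05, standard error 0.28, adjusted p = 0.0314), with between 413 and 534 CPM at 10-dpf and between 162 and 297 CPM at 14-dpf. This call was lost without any of WT replicates 1, 2 and 3 of 10-dpf and 1, 2, 3 and 4 of 14-dpf (log2 fold change between -1.11 and -0.82, adjusted p between 0.0502 and 0.124). With all mice it was lost with no filter on low counts (adjusted p = 0.0989). Of the 3 hypertrophic cartilage markers 2 were called lower over the same interval, and their part was not tested.

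Gja1, described with no test in these models, was 1.69-fold higher at 14- than at 10-dpf in WT (log2 fold change 0.75, standard error 0.12) and 1.33-fold lower in P-Apex1 KO mice (-0.41, standard error 0.16). In P-Apex1 KO mice 0.259% of all genes were called between these time points and 0 of the 6 members tested. The largest estimates were those of Panx3 (-0.68, adjusted p = 0.394) and Panx1 (0.43, adjusted p = 0.197). The interaction of genotype and time from 10- to 14-dpf was passed by 0.436% of all genes and by no member tested. For Panx3 it was 0.37 (adjusted p = 0.799). For Gjb2, described with no p for the reason given above, it was 2.07 (standard error 0.76).

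Of the 16 genes of the family outside the 7, between 5 and 9 passed the filter on low counts at a time point. Gjc3, a connexin gene known from glia, was the only one called between genotypes. At 6-dpf it averaged 16.4 ± 4.31 CPM over 5 WT and 4.48 ± 1.44 CPM over 3 P-Apex1 KO mice, without overlap (log2 fold change -1.90, standard error 0.28, adjusted p = 0.00426). At 14-dpf it was higher in P-Apex1 KO mice, at 8.74 ± 2.41 CPM (n = 3) against 2.71 ± 1 CPM (n = 4), again without overlap (2.27, standard error 0.47, adjusted p = 0.0209). At 10-dpf the groups overlapped (0.29, adjusted p = 0.743). Of the 5 cartilage markers, 5 were called lower at 6-dpf, 0 were called at 10-dpf and 5 were called higher at 14-dpf. Their part in the Gjc3 values was not tested. With time in WT, Gjc3 rose from 3- to 6-dpf (log2 fold change 3.95, adjusted p = 5.79e-06) and fell from 10- to 14-dpf (-2.42, adjusted p = 0.00227), as Panx3 did. Gjb5, an epithelial connexin, fell from 3- to 6-dpf in WT (-0.60, adjusted p = 0.045).

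Of 11 partners of gap junctions, which are adaptors, cadherins, catenins and kinases that gather at these contacts, 0 were called at 3-dpf, 2 lower at 6-dpf, 3 lower at 10-dpf and 5 lower at 14-dpf, with none higher, where 5.61%, 3.44% and 7.04% of all genes were called lower and 5.31%, 3.01% and 4.28% higher at 6-, 10- and 14-dpf. The medians of their log2 fold changes were -0.08, -0.18, -0.33 and -0.71, where those of all genes were -0.00, 0.01, -0.00 and 0.04. Cdh2, the gene of N-cadherin, was called at 6-, 10- and 14-dpf (log2 fold change -0.84, -1.25 and -2.47, adjusted p = 0.00864, 0.0294 and 0.00075). Src, a kinase that phosphorylates connexin 43, was called at 10-dpf (-0.54, adjusted p = 0.0285) and 14-dpf (-1.44, adjusted p = 0.000592). Tjp1, the gene of the scaffold ZO-1, was called at 10-dpf (-0.50, adjusted p = 0.0207) and 14-dpf (-0.87, adjusted p = 0.0115). Ctnnb1, the gene of beta-catenin, was called at 6-dpf (-0.55, adjusted p = 0.0328) and 14-dpf (-0.86, adjusted p = 0.0216), and Cdh11, an osteoblast cadherin, at 14-dpf (-1.25, adjusted p = 0.00552).

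The 19 genes for sensing and breaking down extracellular ATP and adenosine, the signal that pannexins release, gave 0 calls at 3-dpf, 2 lower and 5 higher at 6-dpf, 1 lower and 4 higher at 10-dpf and 1 lower and 2 higher at 14-dpf. The shares of all genes called are those given for the gap junction partners, and at 14-dpf 1 lower and 2 higher of 19 is near them. Their medians were 0.16, 0.41, 0.50 and 0.38. The ectonucleotidase Entpd3 was lower at 6-, 10- and 14-dpf (log2 fold change -1.63, -1.21 and -2.29, adjusted p = 0.00588, 0.0266 and 0.016), and Nt5e, which turns AMP into adenosine, was lower at 6-dpf (-1.06, adjusted p = 0.00314). Higher in P-Apex1 KO mice were the receptor genes P2ry6 at 6-dpf (0.75, adjusted p = 0.0128), Adora3 (1.29, adjusted p = 0.037) and P2ry13 (0.99, adjusted p = 0.0238) at 10-dpf, and P2rx1 (1.12, adjusted p = 0.0117) and P2ry14 (0.82, adjusted p = 0.037) at 14-dpf. These receptors are known from leukocytes and platelets. Macrophage markers were given above for 6- and 14-dpf. At 10-dpf they summed to between 864 and 1458 CPM in WT and between 1480 and 1904 CPM in P-Apex1 KO callus. Of these, 3 of 5 were called higher and none was at 0. Cd68 and Csf1r were not called and lay in the other direction (log2 fold change -0.69 and -0.33). The part of the macrophage markers was not tested.

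For each member the genes with the most similar pattern were ranked by Pearson's r of log2 CPM over the 30 libraries, after the mean of each time point was subtracted, among 13789 protein-coding genes. These values are descriptions, since the libraries share genotype, sex and depth, and Gja1 was chosen for part of its pattern. The genes nearest to Gja1 were Pard6g (r = 0.969), Spns2 (0.968) and Rgs3 (0.960). For Gjc1 they were Ptk2 (0.917), Cdc42bpb (0.905) and Cask (0.903), and for Panx3 Frzb (0.905), Grb14 (0.895) and Kcns1 (0.875). Gja4 was closest to Fermt2 (0.877), Col18a1 (0.869) and Itgb1 (0.868). Values were lower for Panx1, with Wfdc1 (0.835), Adcy7 (0.831) and Synm (0.825), for Gjb2, with Itga7 (0.832), Nos1 (0.825) and Tacc2 (0.810), and for Gja5, with Psmc3 (0.814), Tor1aip2 (0.813) and Sparcl1 (0.790).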

How the data were processed

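Total RNA of callus tissue was depleted of ribosomal and beta globin RNA and made into stranded libraries. Per the labels and the methods of the study, the authors aligned paired reads to mm39 with STAR 2.7.0d and counted unique, reverse-stranded reads per Ensembl release 104 gene with featureCounts. They deposited whole-number counts, without normalization. Symbols, positions and exon lengths came from GENCODE M39, which held 54749 of 55416 gene IDs.

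Each time point was fitted with edgeR 4.0.16 (filterByExpr, TMM, sex and genotype, robust quasi-likelihood F test, Benjamini-Hochberg adjustment over all genes tested, threshold 0.05). Models of a pair of time points held 4 groups and sex, so that both time comparisons share libraries with the genotype comparisons. CPM were scaled within a time point. The libraries are named differently at 3- and 6-dpf than at 10- and 14-dpf, so 6- and 10-dpf were not compared, as batch and time cannot be told apart there. Standard errors are the size of the log2 fold change over the square root of F. Likeness used log2(CPM + 0.5) and genes averaging at least 1 CPM. The statistics were tested on simulated data. No library had the same values as another. Each library was taken as 1 mouse, since the labels number the libraries of a group as replicates and give a sex for each. Standard errors include the spread between mice.

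The members and gene lists were chosen with earlier results of these data known. The genes named were all members, family genes called, the 3 largest changes among the called genes of each pathway list, the 3 genes most like each member, and Apex1. Some items to which this rule applies are not reported here. Alternatives left out the sex term, used DESeq2 1.42.0 or only its size factors, scaled by library size alone, dropped the 20 genes of highest abundance, asked for 10 counts in each library or for none, put all 30 samples in one model, exchanged sex for the replicate number, and dropped each mouse in turn.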

Additional observations from a re-analysis of the deposited data

Results flagged for a closer look

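Of 35 groups of 4 or 5 libraries examined among the 7 genes, 3 held 1 library that stood apart from the rest of its group by Dixon's test, where chance alone flags about 1 in 20. Gja4 in WT mice at 10-dpf had 15.2 CPM in replicate 3, against between 9.28 and 9.97 CPM in the other 3 mice. Gja5 in the 3-dpf libraries labelled P-Apex1 KO had 9.25 CPM in replicate 4, against between 20 and 21.7 CPM in the others, and that library also held more Apex1 (37.1 CPM) than any WT library of the time point. Gjc1 in WT mice at 10-dpf had 16.9 CPM in replicate 4, against between 19.2 and 19.6 CPM in the others.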

How the results depend on the processing

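Of 1419 values recomputed under the alternatives, 1327 kept their direction and their side of the threshold or stayed close to the value reported, 33 lost and 21 gained a call, 34 changed direction and 4 moved. The number of members called was 1 at 6-dpf with no sex term, no filter or the replicate block, and between 1 and 3 when 1 mouse was left out. It was between 0 and 2 at 10-dpf when 1 mouse was left out. At 14-dpf it was 2 with no sex term, 1 with the replicate block, 3 with all 30 samples in one model and between 0 and 2 when 1 mouse was left out. From 10- to 14-dpf in WT it was 1 with at least 10 counts in every sample, with no filter and with the replicate block, and between 0 and 2 when 1 mouse was left out. The Gja1 log2 fold change at 14-dpf was -1.75 with no sex term, -1.70 with library size alone, -1.77 with the replicate block and between -2.01 and -1.67 when 1 mouse was left out.

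Changes of direction concerned small estimates past no threshold. They were those of Gja1 at 3-dpf (0.00 with no sex term, 0.02 with all 30 samples), Gja5 at 14-dpf (-0.05 with the replicate block), Gja1 and Gjc1 from 3- to 6-dpf in WT (-0.13 and -0.12 with library size alone), Gja4 and Gja5 in the interaction from 10- to 14-dpf (-0.22 and -0.07 with no sex term, -0.32 and -0.15 with the replicate block), and Gjb2 (0.02 with no sex term) and Gjc1 (0.02 with library size alone) from 10- to 14-dpf in P-Apex1 KO mice. With 1 mouse left out, ranges that crossed 0 were -0.26 to 0.10 for Gja1 and -0.07 to 0.39 for Gja4 at 3-dpf, -0.12 to 0.16 for Gja5 and -0.03 to 0.17 for Panx1 at 10-dpf, and -0.56 to 0.00 for Gja4 and -0.23 to 0.31 for Gja5 at 14-dpf. From 3- to 6-dpf in P-Apex1 KO mice they were -0.04 to 0.32 for Gja4 and -0.23 to 0.02 for Gjc1. From 10- to 14-dpf in P-Apex1 KO mice they were -0.56 to 0.02 for Gja4, -0.59 to 0.25 for Gjb2 (0.04 without P-Apex1 KO replicate 1 of 14-dpf) and -0.23 to 0.07 for Gjc1, and in the interaction -0.24 to 0.34 for Gja4 (-0.21 without WT replicate 3 of 10-dpf), -0.04 to 0.55 for Gja5 and -0.01 to 0.32 for Gjc1. The causes were not tested. With at least 10 counts in every sample, Gjb2 was left out of every fit but that of 6-dpf.

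Over all genes, calls at 14-dpf were 1424 lower and 865 higher, against 3382 and 3467 with no sex term, 766 and 1878 with library size alone and 3569 and 2619 with all 30 samples. At 10-dpf they were 651 and 570, against 420 and 330 with no sex term and 990 and 1197 with DESeq2. At 6-dpf they were 1137 and 1075, against 814 and 2780 with library size alone and 408 and 269 with the replicate block. Library size alone moved the all-gene median to 0.20 at 6-dpf and 0.31 at 14-dpf. Libraries with the same number did not deviate together in every pair (correlations of 0.406, 0.067, 0.133 and 0.12 at 3-dpf, and below 0 for each pair at 14-dpf), so the replicate block is not a paired design. With it the adjusted p was 0.242 for Gjc1 at 6-dpf and 0.0864 for Panx3 from 10- to 14-dpf in WT. Gjb2 had 1 to 5 counts per WT library at 14-dpf and entered that test through the P-Apex1 KO libraries, and it is among the members counted there with no sex term, the replicate block, all 30 samples or WT replicate 1 left out, so those counts are no support for it. The numbers of members called from 10- to 14-dpf in WT also include Gjb2 where it was called, and are no support for it.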
